A study of Mus musculus with 57 samples.

Results

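Kupffer cells sorted from mouse liver after 10 weeks of a NASH diet were set against Kupffer cells sorted after 1 week of it. The comparison holds 5 of the 57 RNA-seq libraries of the series, taken by the cell type and weeks of diet in their labels: 3 of week 10 and 2 of week 1. It was read across all genes, with 1 transcript kept per gene symbol, the one with the highest total count, which left 14551 genes tested of 24940. Both groups are labelled C57BL/6J, NASH diet (non-alcoholic steatohepatitis) and F4/80-Hi Tim4-Pos Kupffer cells, so strain, diet and sorting gate are shared and the weeks of diet differ. Kupffer cells of the same gate and strain at week 0 (3 libraries), week 4 (2), week 20 (3) and week 30 (4) entered the same model and place both groups on the time course. Age and sex of the mice are not given in the sources used here, and nothing in the labels says that replicates came from separate animals, so p-values measure only the spread between these libraries.

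Kupffer cells are the resident macrophages of the liver sinusoid, where they take up particles, iron, lipoproteins and dying cells. A fat-loading diet is known to act on them in several ways: sterols activate the nuclear receptor LXR, damaged hepatocytes release signals that induce chemokines such as Ccl2, and lipid-loaded macrophages in NASH can take on a lipid-associated programme marked by Gpnmb, Cd9, Trem2 and Spp1. The comparison asks which responses seen after 1 week had faded by week 10, and which had built up.

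The libraries held 18030443 and 24580965 counts at week 1 and between 13529318 and 16661714 at week 10. The defining Kupffer transcripts were high in all 5. Clec4f, a Kupffer cell lectin, stood at 11028 and 12452 CPM (counts scaled to library size, after edgeR's TMM normalization) at week 1 and at 8141, 8222 and 9459 CPM at week 10. Each group was extreme among the weeks in a sign of its libraries, and these signs stand here before any result. Summed over 18 hepatocyte markers, the week 1 libraries held 10265 and 6892 CPM, above week 10 (2380 to 4827) and week 0 (1319 to 2084). Week 4 was raised over week 0 as well (4063 and 5587). Among the 1784 genes averaging 0.2 to 1 CPM, the share listed at 0 had a median of 27.0% and a highest value of 32.4% in the week 10 libraries, against 3.59% to 11.7% in the libraries of all other weeks. The week 1 group has only 2 libraries, and several results below rest on the first of them.

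**Figure D1:**
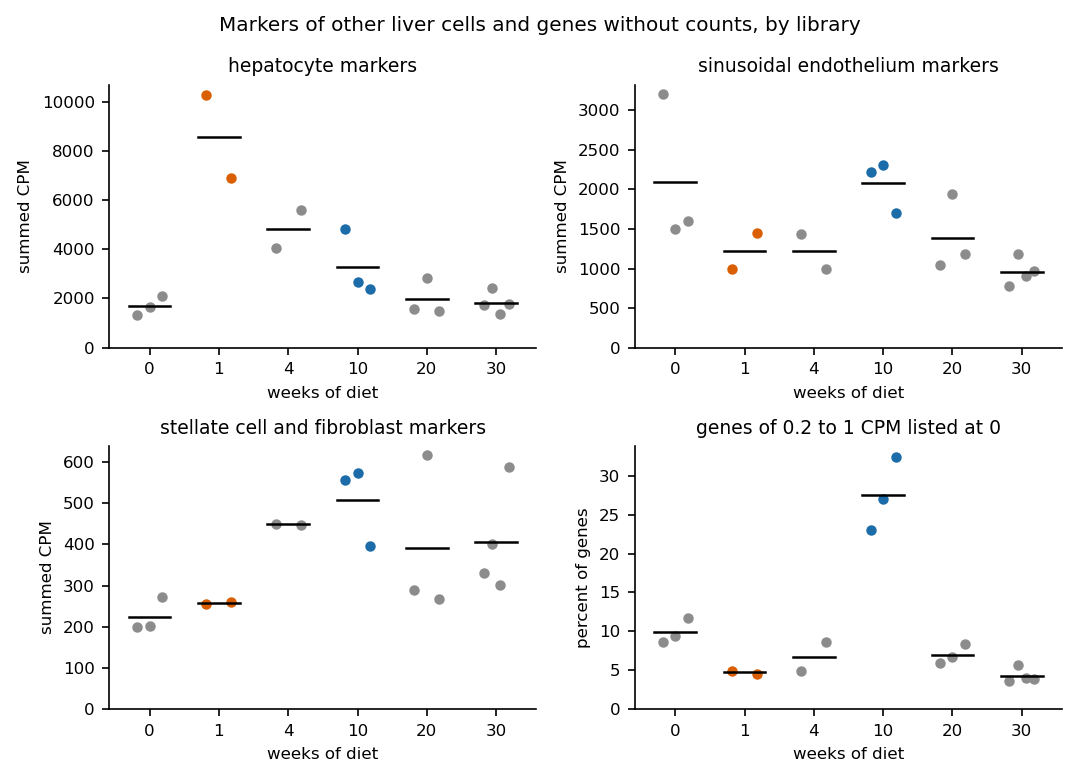
Library signs by weeks of diet, one point per library (orange week 1, blue week 10, grey other weeks) with the group mean as a bar: summed CPM of hepatocyte, sinusoidal endothelial and stellate cell markers, and the percentage of genes averaging 0.2 to 1 CPM that were listed at 0. Week 1 has the highest hepatocyte sums (6892 and 10265 CPM), and week 10 has the highest shares of genes at 0 (median 27.0%).

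At week 10, 917 genes were higher than at week 1 (6.30% of those tested) and 829 were lower (5.70%), by edgeR's quasi-likelihood test at a Benjamini-Hochberg adjusted p under 0.05. Lipid-associated genes, collagens and endothelial genes were among those that rose. Chemokines, lipogenic enzymes, chaperones and respiratory chain subunits were among those that fell. The median log2 change of all genes was -0.01. The 6.30% and 5.70% of all genes stand beside the counts of called members in each list below. Without the first week 1 library the calls dropped to 154 higher and 168 lower, and without the second to 327 and 455, each such fit assuming that the lone week 1 library varied like the other groups. In the deposited TPM values, where the median of all genes shifted to 0.12 on the log2(TPM + 1) scale, limma called 1736 genes higher and 542 lower.

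To separate fading from building, each gene's change from week 0 to week 1 was set beside its change from week 1 to week 10. The week 1 libraries enter both, so opposite signs are partly built in, and the counts are given as a description. Of the genes called higher at week 1 than at week 0 (1371, 9.42%), 332 came down again by week 10, 1028 stayed without a call between the weeks and 11 rose further. The 332 fading genes had a median log2 level over week 0 of 1.28 at week 1, 0.49 at week 4 and 0.15 at week 10. At week 10, 239 of them were no longer called against week 0 and 88 were still called higher. The 1028 held genes had a median of 1.51 at week 1 and 1.00 at week 10. Held means only that no call was made between weeks 1 and 10. At week 10, 660 of them were still called higher than week 0 and 368 were not called. Of the genes called lower at week 1 (954, 6.56%), 396 came back up, with a median of -0.93 at week 1 and 0.03 at week 10. Only 4 of the early fallers fell further. The other 554 had no call between the weeks, and at week 10 242 of them were still called lower than week 0 and 312 were not called. The 11 that rose at both steps include Gpnmb, Col3a1, the hepatocyte growth factor gene Hgf (log2 change 0.58) and Ccni, an atypical cyclin (0.72), and the 4 that fell at both include the chemokine receptor Ccr3 (fell by 1.58); of these 15, all but Gpnmb and Col3a1 are named after their values were seen. A further 510 genes rose and 493 fell between the weeks with no call at week 1 against week 0. Thus 728 genes changed back, against 15 that moved on in their first direction; without the first week 1 library these counts were 134 and 0, and without the second 397 and 1.

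Part of the lipid-associated macrophage list rose. Of its 22 tested members 7 were higher at week 10, 15 were not called and none was lower, with 8 log2 changes below 0 and a median of 0.31. At week 1 against week 0, 4 members had been called higher, and at week 10 against week 0, 12, where 11.5% of all genes were called higher and 7.63% lower. Gpnmb, a transmembrane glycoprotein of lipid-laden macrophages (mm10 chr6:49036518-49058182, plus strand), stood at 6.98 and 10.6 CPM at week 1 and at 83.2, 61.7 and 24.3 CPM at week 10. All week 10 libraries were above both week 1 libraries, and its log2 change was 2.67 ± 0.54 (SE, edgeR adjusted p = 0.00716). Gpnmb averaged 0.988 CPM at week 0, 1385 at week 20 and 1603 at week 30, so the week 10 level lay far below the later ones. It was the only member of the list called higher at both steps, from week 0 to week 1 and from week 1 to week 10; the other 6 had no call at week 1 against week 0.

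Cd9, a tetraspanin of the cell surface (mm10 chr6:125460266-125494760, minus strand), had 14.9 and 20.7 CPM at week 1 and 75.0, 66.2 and 39.6 CPM at week 10. Its groups did not overlap, its log2 change was 1.75 ± 0.28 (adjusted p = 0.00182), and it was the only member of the list called in each of the 5 fits that left out 1 library. Cd36, the scavenger receptor that imports fatty acids, had 468 and 321 CPM at week 1 and 1067, 1028 and 1054 CPM at week 10. The 3 week 10 values lie close together above week 1, with a log2 change of 1.41 ± 0.27 (adjusted p = 0.00533). The lysosomal tetraspanin Cd63 rose from 1.36 and 1.31 CPM to 19.4, 17.2 and 4.24 CPM (log2 change 3.34 ± 0.65, adjusted p = 0.00573).

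2 other members rose with overlapping groups. The elastase Mmp12 had 34.4 and 51.7 CPM at week 1 and 603, 382 and 39.3 CPM at week 10, and the last of its 3 week 10 libraries lay inside the week 1 range (log2 change 2.98 ± 0.83, adjusted p = 0.0300). Atp6v0d2, a subunit of the vacuolar proton pump, had 1.59 and 2.36 CPM against 19.5, 12.1 and 2.18 CPM, again with the last week 10 library inside the week 1 range (2.48 ± 0.70, adjusted p = 0.0321). Vat1 was the other caller (log2 change 0.66 ± 0.20, adjusted p = 0.0401). Trem2, the lipid-sensing receptor that names the programme, had 56.3 and 65.7 CPM at week 1 and 55.9, 59.3 and 80.5 CPM at week 10 and was not called (0.10 ± 0.35, adjusted p = 0.884). Without the first week 1 library 2 of the 22 members were called, and without the second 3.

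**Figure D2:**
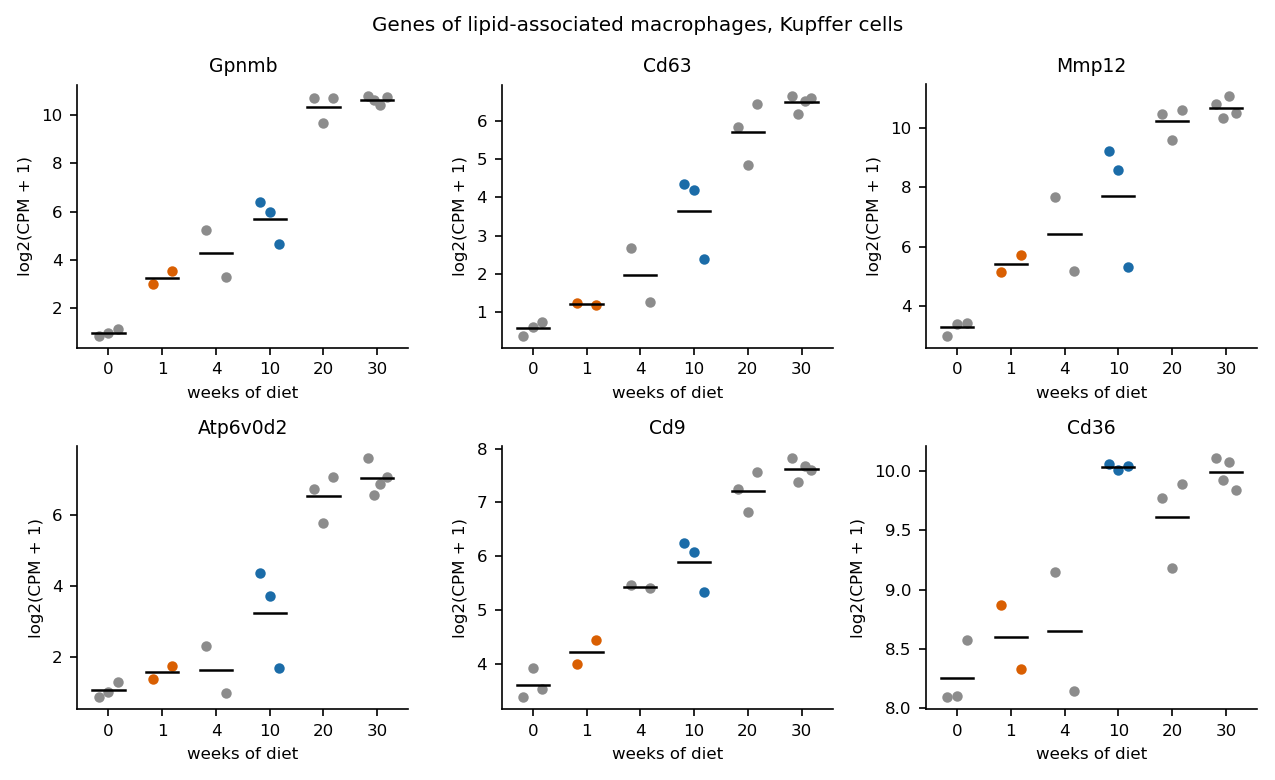
Level as log2(CPM + 1) of 6 lipid-associated genes in each Kupffer cell library by weeks of diet; points are libraries and bars group means. Gpnmb, Cd63, Cd9 and Cd36 have all 3 week 10 libraries (blue) above both week 1 libraries (orange), while for Mmp12 and Atp6v0d2 the lowest week 10 library lies within the week 1 range.

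Of 19 tested chemokines 5 were lower at week 10 and none higher, beside 5.70% and 6.30% of all genes. 3 of the 5 fell after an early rise, and the median log2 change was -0.81 against -0.01 for all genes. Ccl2, Ccl7 and Ccl12, monocyte-attracting ligands of Ccr2 encoded side by side on chromosome 11, had all been called higher at week 1 than at week 0. Ccl2 (mm10 chr11:82035577-82037452, plus strand) had 75.3 and 18.8 CPM at week 1 and 16.3, 13.7 and 5.81 CPM at week 10, with a week 0 mean of 16.7 CPM. The first week 1 library lay far above the second, which sat just above week 10. The log2 change was -1.98 ± 0.46 (adjusted p = 0.0137), and -0.67 without that library (adjusted p = 0.396).

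Ccl7 had 46.8 and 5.57 CPM at week 1 against 3.61, 2.76 and 0.363 CPM at week 10, a log2 change of -3.54 ± 0.73 (adjusted p = 0.00771). Ccl12 had 11.7 and 2.70 CPM against 1.55, 0 and 0.666 CPM, a log2 change of -3.26 ± 0.79 (adjusted p = 0.0171). As for Ccl2, most of the week 1 signal of both genes came from the first library. Genes averaging 0.2 to 1 CPM were most often listed at 0 in the week 10 libraries, and both genes reached levels below 1 CPM there. The part of this in their falls was not tested. Ccl24 (-0.86 ± 0.26, adjusted p = 0.0443) and Cxcl16 (-0.51 ± 0.16, adjusted p = 0.0495) were the other callers, and none of the 5 was called without the first week 1 library. Not all early chemokines were called lower. Cxcl2, a neutrophil attractant, averaged 3.15 CPM at week 0, 42.5 at week 1 and 40.1 at week 10, and Ccl9 16.4, 70.7 and 72.2 CPM. In fits that left out 1 library, the log2 change ran from -0.59 to 0.66 for Cxcl2 and from -0.56 to 0.97 for Ccl9. Their direction between weeks 1 and 10 is therefore not settled.

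Of 16 tested genes of fatty acid synthesis and desaturation 6 were lower at week 10 and none higher, beside 5.70% and 6.30% of all genes. Their median log2 change was -0.51. At week 1 against week 0, 7 had been called higher, and 4 of these (Thrsp, Scd1, Srebf1 and Acaca) came down by week 10. Thrsp, a lipogenic nuclear protein (mm10 chr7:97412933-97417550, minus strand), had 8.17 and 9.28 CPM at week 1 and 0.903, 0.828 and 0.242 CPM at week 10. Both week 1 libraries stood well above every other, with an average of 0.234 CPM at week 4. Its log2 change was -3.72 ± 0.69 (adjusted p = 0.00433), and it was called in all 5 fits that left out 1 library.

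Scd1, the desaturase that makes oleate, took a partial step back. It averaged 240 CPM at week 0, stood at 941 and 1501 CPM at week 1 and at 895, 636 and 528 CPM at week 10. The week 10 values lay below week 1 and were still called above week 0 (adjusted p = 0.000217), and the log2 change between weeks was -0.83 ± 0.22 (adjusted p = 0.0244). Srebf1, the transcription factor of lipogenesis, had 197 and 163 CPM at week 1 and 87.6, 115 and 130 CPM at week 10 (-0.70 ± 0.14, adjusted p = 0.00758), close to its week 0 mean of 107 CPM. Acaca fell by 0.92 on the log2 scale. Fasn and Elovl1 fell by 0.72 and 0.64 with no call at week 1 against week 0. Plin2, the lipid droplet coat protein, was instead held: 165 CPM at week 0, 519 at week 1 and 408 at week 10 on average, with no call between weeks 1 and 10 (adjusted p = 0.174). Without the first week 1 library 2 of the 16 lipogenic genes were called, without the second 3.

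**Figure D3:**
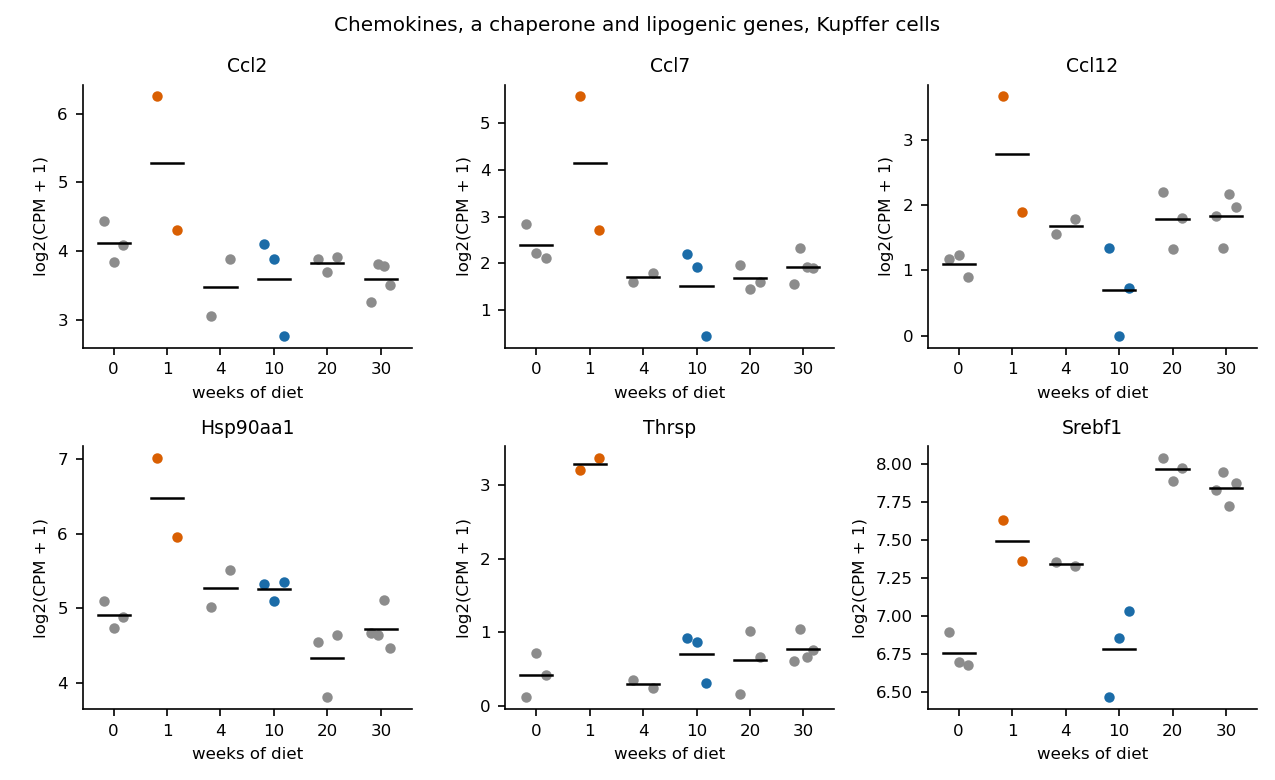
Level as log2(CPM + 1) of 6 fading genes in each Kupffer cell library by weeks of diet; points are libraries and bars group means. Both week 1 libraries (orange) lie above week 10 (blue) for each gene, and for Ccl2, Ccl7, Ccl12 and Hsp90aa1 the first week 1 library lies far above the second.

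Of 21 tested heat shock and protein folding genes, 8 were lower at week 10 and none higher, beside 5.70% and 6.30% of all genes. Their median log2 change was -0.73, and 10 had been called higher at week 1 than at week 0. The cytosolic chaperone Hsp90aa1 had 128 and 60.7 CPM at week 1 and 38.9, 33.1 and 40.0 CPM at week 10 (log2 change -1.34 ± 0.29, adjusted p = 0.00940). The groups did not overlap, and the first week 1 library was again the higher. Hspa8, Hsp90ab1, Hsp90b1, Ahsa1, Stip1, Hspb1 and Hspa5 were the other members called lower, Stip1 and Hspa5 without a call at week 1 against week 0. The inducible pair Hspa1a and Hspa1b, near-identical copies whose reads cannot be assigned with certainty, reached 268 and 453 CPM in the first week 1 library and 22.8 and 31.2 CPM in the second, and neither was called. The chaperone result turned on 1 library: without the first week 1 library no member was called, and without the second 12 were.

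The unfolded protein and integrated stress response list had 5 members lower and 1 higher of 23, beside 5.70% and 6.30% of all genes. Its median was -0.44. Xbp1, the transcription factor of the unfolded protein response, had 314 and 135 CPM at week 1 and 96.5, 86.4 and 124 CPM at week 10 (-1.13 ± 0.24, adjusted p = 0.00945). Its groups did not overlap, but the second week 1 library lay close to week 10. The member that rose was Asns, asparagine synthetase, with 0.397 and 0.126 CPM at week 1 and 5.10, 3.66 and 6.05 CPM at week 10. It averaged 9.01 CPM at week 0, so week 1 was the exception. Its call was lost when any 1 week 10 library was left out.

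Energy metabolism and lysosomal genes shifted by smaller amounts. Of 24 respiratory chain and ATP synthase genes, 23 had a log2 change below 0 and 7 were called lower, with a median of -0.44. Cox7a2 fell by 1.14 and Atp5b by 0.54. These transcripts are short, with a median of 1120 bases, and changes followed transcript length, as given below. With an offset for length their median was -0.30 and 6 were called lower. Without the second week 1 library none of the 24 was called, and without the first 5 were. Glycolysis and hypoxia genes had 4 of 24 lower. Ldha, lactate dehydrogenase, had 408 and 345 CPM at week 1 and 210, 224 and 202 CPM at week 10, back at its week 0 mean of 207 CPM (-0.83 ± 0.13, adjusted p = 0.00177). Of 30 lysosomal genes 5 were lower, Hexa (fell by 0.50) and Ctsz (fell by 0.56) among them. Of these 5 only Ctss, given below, kept its call whichever library was left out. In each of these lists the share of members called lower was above the 5.70% of all genes, a difference that was not tested.

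Iron and oxidative stress genes followed the same direction, and the LXR list as a whole changed less. Counts of lower members stand beside 5.70% of all genes. Of 20 haem and iron genes 6 were lower, among them Blvrb, biliverdin reductase B (fell by 1.12), and the ferritin chain Fth1 (fell by 0.75). Of 22 NRF2 and oxidative stress genes 5 were lower, Gpx1 from 1871 and 2613 CPM to 1012, 985 and 1534 CPM (-0.93 ± 0.24, adjusted p = 0.0209). LXR targets had 4 of 21 lower after 8 called higher at week 1, with a median log2 change of -0.14. Of the 4, Scd1 and Srebf1 are also in the lipogenic list above. Against week 0 the list median was 0.45 at week 1 and 0.48 at week 10, where 6 members were called higher. Abca1, the cholesterol exporter, rose from 601 CPM at week 0 to 1385 at week 1 and averaged 945 CPM at week 10, a log2 difference of -0.55 that was not called (adjusted p = 0.0935). Apoe, the most abundant LXR target, averaged 14847 CPM at week 1 and 14108 at week 10.

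Of 28 tested Kupffer identity genes 3 were lower and 1 higher, beside 5.70% and 6.30% of all genes, with a median log2 change of -0.33, and none was called at week 10 against week 0. Adgre1, which encodes the F4/80 antigen of the sorting gate and is not in that list, had 2574 and 3015 CPM at week 1 and 1690, 1630 and 2009 CPM at week 10 (-0.65 ± 0.19, adjusted p = 0.0386). Timd4, the other gate gene and a member, had 747 and 1017 CPM against 621, 649 and 684 CPM and was not called (adjusted p = 0.576). Folr2, a folate receptor of resident macrophages, fell from 1268 and 1696 CPM to 830, 893 and 895 CPM (-0.76 ± 0.24, adjusted p = 0.0481). Il18bp, the secreted inhibitor of interleukin 18 (fell by 0.92), and the phagosomal metal transporter Slc11a1 (fell by 0.50) were the other identity genes that fell. Sash1, a scaffold protein, was the one that rose (log2 change 0.57 ± 0.15, edgeR adjusted p = 0.0256). Folr2 lost its call when any 1 week 10 library was left out. Adgre1 and Slc11a1 lost theirs without the first or the second week 10 library, and Sash1 without the third, while Il18bp kept its call in those fits. Counting the fits without a week 1 library, neither Adgre1 nor any called identity gene kept its call in all 5 fits. Over these fits the log2 change ran from -0.78 to -0.56 for Adgre1 and from -1.18 to -0.64 for Il18bp.

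Antigen presentation, interferon, inflammatory and complement genes mostly had log2 changes below 0, with few calls. Their counts of called members stand beside 5.70% of all genes called lower and 6.30% called higher. No MHC class II gene of 11 was called by edgeR's quasi-likelihood test, none passed an unadjusted p under 0.05 and none was called by DESeq2, with a median of -0.19; Cd74, the invariant chain, averaged 5625 CPM at week 1 and 3891 at week 10. Of 30 interferon response genes 28 had a log2 change below 0, with a median of -0.49, and Mx2, an antiviral GTPase, was the only one called (fell by 1.23). Of 28 inflammatory genes 2 were lower: Il1a, with 154 and 111 CPM at week 1 and 82.1, 70.0 and 69.2 CPM at week 10 (-0.85 ± 0.20, adjusted p = 0.0152), and Nfkbia, the inhibitor of NF-kB, with 216 and 161 CPM against 72.7, 79.3 and 90.5 CPM (-1.22 ± 0.24, adjusted p = 0.00572). C1qb, a chain of complement C1q, was the 1 member called lower of 21 complement genes, of which 18 were below 0 with a median of -0.49. It went from 5232 and 5483 CPM to 2788, 2861 and 3344 CPM (-0.84 ± 0.16, adjusted p = 0.00531). Ctss, the cathepsin that processes the invariant chain, fell from 3827 and 3930 CPM to 2345, 2220 and 2562 CPM (-0.71 ± 0.14, adjusted p = 0.00531). Both genes were called in each of the 5 fits that left out 1 library.

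The remaining lists had at most 3 calls each, to be read beside the 5.70% of all genes called lower and 6.30% higher. Proliferation genes had 2 of 32 lower (Mcm2 and Pcna), MHC class I genes 2 of 16 (B2m and Psmb8), and immediate early genes 1 of 27, the early transcript Ier2, with 35.4 and 32.5 CPM at week 1 and 10.8, 13.9 and 16.3 CPM at week 10. Cholesterol synthesis (25 tested), lipid droplet and PPAR genes (22) and efferocytosis genes (25) had 1 member higher and 1 lower each. Clock genes had 2 of 18 lower and glucocorticoid response genes 2 of 15, the latter with a median of -1.26; their called members Errfi1 and Mt1 were highest in the first week 1 library. Monocyte genes had 3 of 17 lower, of which S100a8 and S100a9 are also neutrophil markers, and recruited macrophage genes 1 of 14 higher, the chemokine receptor Cx3cr1 (log2 change 1.28 ± 0.40, adjusted p = 0.0461). Among other cell markers, 2 of 10 for neutrophils, 1 of 11 for B cells, 1 of 9 for erythroid cells and platelets and 1 of 7 for cholangiocytes were lower, and of 12 dendritic cell markers none was called by edgeR or DESeq2 and 2 had an unadjusted p under 0.05.

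**Figure D4:**
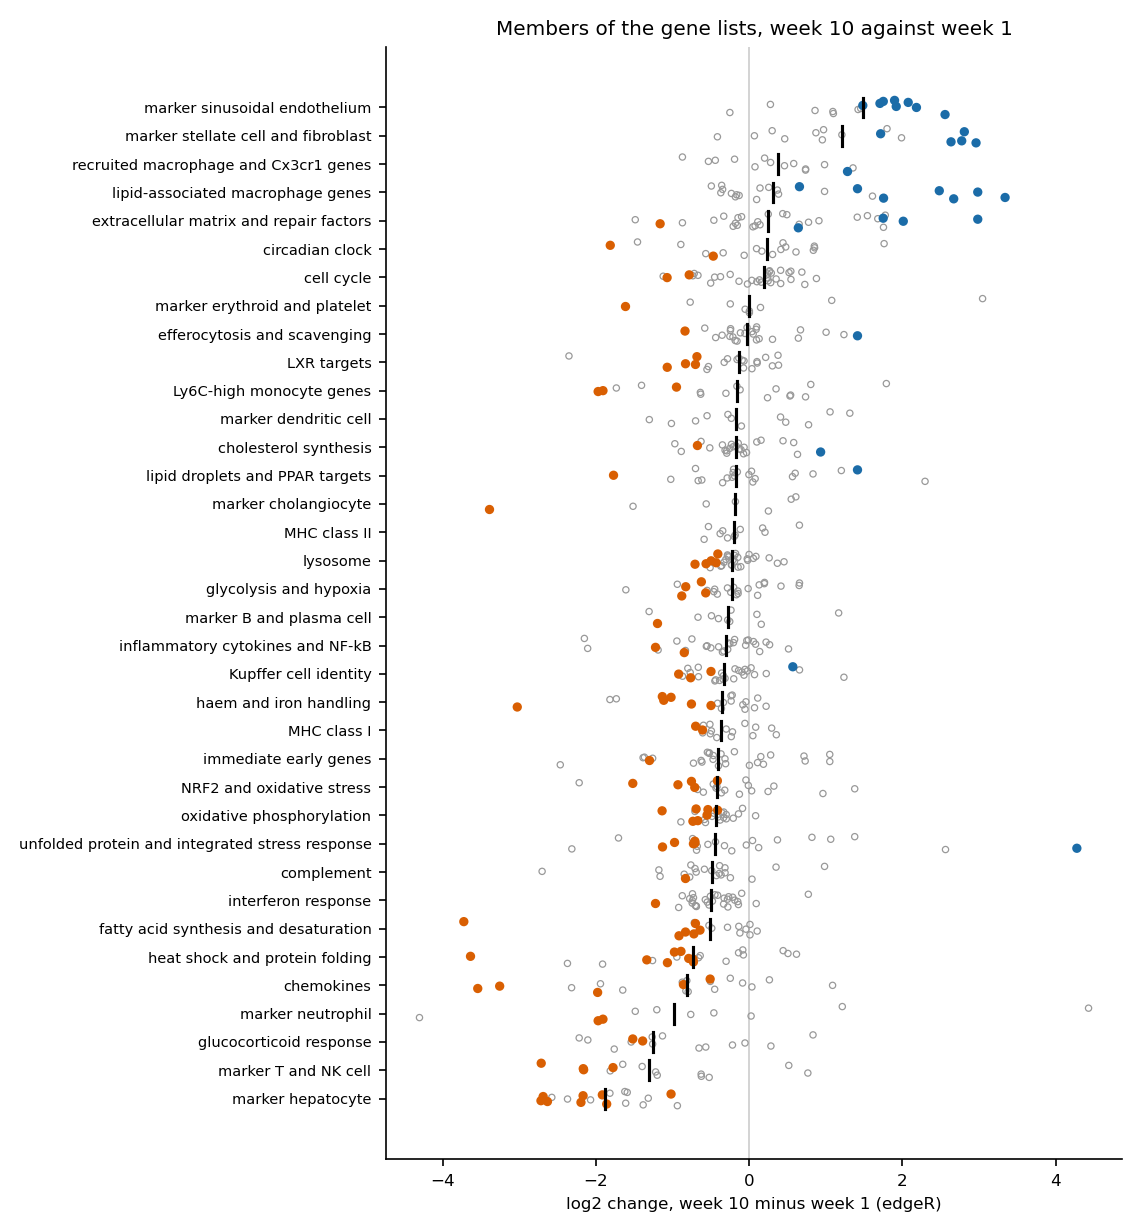
Log2 change from week 1 to week 10 (edgeR) of each tested member of the gene lists, one point per gene, coloured where called, with the list median. Hepatocyte markers have a median of -1.89 and sinusoidal endothelial markers of 1.48; lipid-associated genes have 7 members called higher.

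Promoter sequence was read beside these directions, since genes that move together can share a motif. Of 11151 tested genes with a RefSeq promoter (GRCm38.p6, 250 bases before to 50 after the start), 3.67% held the AP-1 motif, spelled TGACTCA or TGAGTCA on either strand. The share was 6.53% of 643 genes lower at week 10, 2.26% of 708 higher genes and 8.33% of 252 that faded after an early rise; these shares were not tested. AP-1 was 1 of 7 motifs searched. The interferon response element core went the same way, in 3.29% of all, 5.60% of lower, 2.26% of higher and 7.14% of fading promoters. The full CRE palindrome was in 3.08%, 4.35%, 2.40% and 4.37%, and the E-box (CACGTG) in 9.95%, 7.78%, 8.76% and 5.56%. The sterol, NF-kB and heat shock elements were each in under 1% of all promoters. 4 promoters with a match are printed 5′ to 3′ on the gene's strand, 250 bases up to the start, with the motif in capitals: Mmp12 as a gene that rose, and Il1a, Hspa5 and Folr2 as genes that fell. The windows are chr9:7347124-7347373 (plus) for Mmp12, chr2:129309973-129310222 (minus) for Il1a, chr2:34771840-34772089 (plus) for Hspa5 and chr7:101845332-101845581 (minus) for Folr2.
Mmp12: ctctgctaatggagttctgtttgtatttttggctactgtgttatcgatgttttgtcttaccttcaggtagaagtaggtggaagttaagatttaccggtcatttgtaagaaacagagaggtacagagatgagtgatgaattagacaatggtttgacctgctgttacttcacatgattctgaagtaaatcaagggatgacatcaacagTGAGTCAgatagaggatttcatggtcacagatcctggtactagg
Il1a: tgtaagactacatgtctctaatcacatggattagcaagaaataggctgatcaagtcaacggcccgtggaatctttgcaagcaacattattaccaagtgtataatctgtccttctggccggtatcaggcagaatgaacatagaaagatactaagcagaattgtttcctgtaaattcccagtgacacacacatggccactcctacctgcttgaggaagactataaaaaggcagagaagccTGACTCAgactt
Hspa5: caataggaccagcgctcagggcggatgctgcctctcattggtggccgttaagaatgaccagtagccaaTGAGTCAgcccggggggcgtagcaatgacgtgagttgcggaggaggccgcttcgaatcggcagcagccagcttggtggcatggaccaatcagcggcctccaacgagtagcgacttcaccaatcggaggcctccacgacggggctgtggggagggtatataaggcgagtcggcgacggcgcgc
Folr2: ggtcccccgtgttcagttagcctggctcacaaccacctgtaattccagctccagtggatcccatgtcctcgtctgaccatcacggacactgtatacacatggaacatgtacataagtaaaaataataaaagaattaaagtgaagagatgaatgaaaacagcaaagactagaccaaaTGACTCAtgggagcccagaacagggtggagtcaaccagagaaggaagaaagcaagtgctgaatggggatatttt
The motif begins 44 bases before the start in Mmp12, 12 in Il1a, 182 in Hspa5 and 74 in Folr2. A match is a stretch of letters, not a measured binding site.

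Markers of other liver cells moved with the weeks. All 18 hepatocyte markers were called higher at week 1 than at week 0, and 8 were called lower at week 10 than at week 1, with a median of -1.89. In bulk libraries, fewer cells of a type and less RNA per cell cannot be told apart. For each gene called lower, the RNA that hepatocytes would bring was computed from 22 whole liver libraries of the series, by scaling each gene to the hepatocyte marker sum. Those mice were of other genotypes, labelled Clec4f-cre DTR neg (10) and DTR pos (12), and had 4 weeks of another diet, CDAHFD. That amount matched at least 50% of the fall for 99 of the 829 genes (11.9%), for 84 of the 332 that faded after a rise (25.3%) and for 5 of the 8 hepatocyte markers called lower. It did so for none of the 5 chemokines (median 0.170%), none of the 6 lipogenic genes (4.64%) and none of the 8 chaperones (3.25%). Among the haem and iron genes Hamp, which encodes the liver hormone hepcidin, reached 98.7%, and Trf, transferrin, itself one of the hepatocyte markers, 52.6%. The amount also passed 50% for Errfi1 of the glucocorticoid list (91.6%), Prdx6 of the NRF2 list (103%) and Dgat2, a triglyceride synthesis enzyme of the lipid droplet list (142%). Over the 7 respiratory genes called lower it had a median of 18.3%. The hepatocyte markers make up the scaling sum, so their own match is partly built in. Whether ratios from another diet and other genotypes hold for hepatocytes at weeks 1 and 10 was not tested, nor was the source of any fall.

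Sinusoidal endothelial markers went the other way: 12 of 15 were called lower at week 1 than at week 0 and 8 higher at week 10 than at week 1, with a median of 1.48. Kdr, the VEGF receptor of endothelium, had 21.1 and 27.7 CPM at week 1 and 124, 129 and 79.6 CPM at week 10, against a week 0 mean of 105 CPM. Stellate cell and fibroblast markers had 5 of 15 higher, with a median of 1.21. Collagen Col3a1 had 5.67 and 5.99 CPM at week 1 and 40.3, 56.7 and 22.9 CPM at week 10 (2.77 ± 0.66, adjusted p = 0.0153), and Col1a1 3.12 and 1.48 CPM against 15.1, 28.4 and 9.56 CPM. The summed stellate markers were 256 and 259 CPM at week 1 and 396 to 573 at week 10. The list of matrix and repair factors, which holds no collagen, had 4 of 29 members higher (Mmp12, Mmp14, Timp3 and Tgfb1) and 1 lower (Hbegf), and the part of stellate cell RNA in it was not tested. Of 14 T and NK cell markers 4 were lower, with Gzma at 19.1 and 21.4 CPM at week 1 and 6.97, 4.55 and 2.06 CPM at week 10. Without the second week 1 library no endothelial marker was called, and without the second week 10 library no hepatocyte marker. Without the first week 1 library no endothelial, stellate, hepatocyte or T and NK marker was called.

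A set of calls held whichever of the 5 libraries was left out: 96 of the 917 higher genes and 88 of the 829 lower, 10.5% of the calls. Leaving out 1 week 10 library left 4 to 7 lipid-associated genes higher, and 3 or 4 chemokines, 3 to 5 lipogenic genes, 5 to 9 chaperones and 2 to 4 respiratory genes lower. Among named genes, Marcks, an actin-binding substrate of protein kinase C, had 585 and 461 CPM at week 1 and 1191, 1375 and 1245 CPM at week 10 (1.28 ± 0.18, adjusted p = 0.000996). Mmp14, a membrane-bound collagenase, had 19.2 and 15.6 CPM against 69.0, 71.6 and 34.5 CPM (1.75 ± 0.33, adjusted p = 0.00436), and Vwf, the clotting factor of endothelium and platelets, 5.05 and 3.50 CPM against 36.1, 74.6 and 22.9 CPM (3.39 ± 0.58, adjusted p = 0.00263). Marcks and Mmp14 had been lower at week 1 than at week 0. Further genes of this set, chosen after their values were seen, include the Fc receptor Fcgr1 (fell by 0.85) and the co-stimulator Cd86 (fell by 0.84).

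Some genes stood apart at week 1 from every other week. There were 253 genes called higher (83) or lower (170) at week 1 than in each other week, which by this definition are among the calls between weeks 1 and 10 and make up 14.5% of them. Week 0 had 252 such genes (27 and 225), week 10 had 208, week 4 had 9, and weeks 20 and 30 had 0 each. Week 4, like week 1, has 2 libraries. Ifi208, an interferon-inducible gene of a family of close copies, had 51.6 and 50.5 CPM at week 1 and at most 0.258 CPM at week 10 (log2 change -7.99 ± 0.52, adjusted p = 5.40e-07). The ribosomal protein gene Rpl29 had 1893 counts at week 1 and 2 at week 10, a ratio of 1065 (95% interval 294 to 8802, counting error only); its processed copies make its counts uncertain. Nnt, the mitochondrial transhydrogenase, in which C57BL/6J mice are known to carry a deletion, had 49.3 and 42.8 CPM at week 1 and 103 CPM in each week 10 library, with 101 CPM at week 0. Wdfy1 likewise had 30.9 and 26.1 CPM at week 1 and 78.6, 64.9 and 77.5 CPM at week 10, and Ide, the insulin-degrading enzyme, 155 and 146 CPM against 87.7, 71.6 and 75.6 CPM. In each of these genes both week 1 libraries agreed closely and stood away from every other library group, although all carry the same strain label; what sets them apart was not tested.

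Changes also followed transcript length. In the decile of genes with the shortest transcripts the median log2 change was -0.29, with 19 genes higher and 139 lower; in the decile with the longest it was 0.29, with 250 higher and 15 lower. With an offset for length in each library, chosen after seeing the data, the medians were -0.04 and -0.02, and 757 genes were called higher and 1031 lower (42.3% higher, against 52.5% without it). The lipid-associated list then had 8 members higher, chemokines 3 lower, chaperones 8 lower, lipogenic genes 6 lower and respiratory genes 6 lower. List medians without and with the offset were -0.44 and -0.30 for respiratory genes and -0.81 and -0.56 for chemokines. They were -0.73 and -0.71 for chaperones, -0.51 and -0.56 for lipogenic genes and 0.31 and 0.32 for lipid-associated genes.

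**Figure D5:**
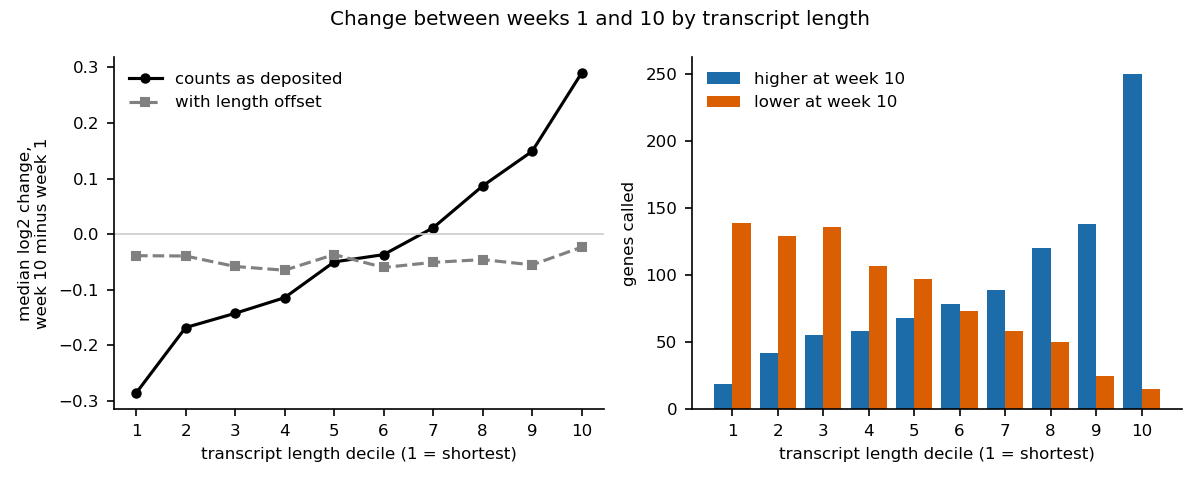
Left, median log2 change from week 1 to week 10 for deciles of genes by transcript length, from the counts as deposited (black) and with a length offset (grey). Right, genes called higher (blue) and lower (orange) in each decile; higher calls go from 19 in the shortest to 250 in the longest decile and lower calls from 139 to 15.

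Week 20 against week 4 spans a later stretch of the diet and shares no library with weeks 10 and 1. It gave 1215 genes higher (8.35%) and 1223 lower (8.40%). Of the 917 genes higher at week 10 than at week 1, 155 were also higher at week 20 than at week 4 (16.9% of the first list and 12.8% of the second) and 38 were lower. Of the 829 lower genes, 106 were lower again (12.8% and 8.67%) and 73 were higher. Of the 22 lipid-associated genes 17 were higher at week 20 than at week 4, with a median of 1.48, beside 7 and 0.31 between weeks 1 and 10. MHC class II genes differed in that 6 of 11 were higher at week 20 than at week 4, with a median of 1.71, where none was called between weeks 1 and 10. Whether the 2 intervals differ was not tested.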

How the data were processed

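RNA was measured by poly(A) RNA-seq in sorted mouse liver macrophages. Per the labels' protocols, livers were perfused and digested in the presence of flavopiridol, a transcription blocker, before density separation and sorting. The tools in the submitters' processing notes are STAR, HOMER and DESeq2, and the build is mm10; versions, trimming and strand settings are not given in the sources used here. The authors deposited raw counts and TPM values per transcript, summed over exons with HOMER's analyzeRepeats.pl, per the file headers. Without strand settings, reads of overlapping antisense genes cannot be told apart.

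From 40458 transcript lines, 1 transcript per symbol was kept. The 2 lines without a symbol held 1.85e-05% of the counts and were left out. Depth was 10483451 to 26969505 counts per library in the 17 Kupffer time-course libraries. The count test was edgeR 4.0.16 (R 4.3.3): filterByExpr with a minimum count of 10 and a total of 15, TMM, glmQLFit over 6 weeks with 11 residual degrees of freedom, two-sided, Benjamini-Hochberg adjusted, called under 0.05. The scripts were tested on simulated data. Replicates within a week differed by more than sampling noise, so none was merged. Single-sample intervals cover counting error only.

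The comparison, the 27 programme lists and the 9 cell marker lists were chosen with earlier results of these data known. Named genes were the 12 largest called changes each way (at least 10 CPM, groups not overlapping), the 6 most abundant called each way, up to 4 called genes and the most abundant of each list, the 6 largest changes of week 1 against week 0 each way, and the gate genes. Groups that do not overlap were thus a condition for part of the named genes, and the share of such genes among all is not given. Further members of the lists, and genes called in every single-library-out fit, were named after their values were seen. DESeq2 1.42.0, limma 3.58.1 on log2(TPM + 1) and log2(TPM + 0.1), RLE size factors, no filter, the longest transcript, a replicate block, the 5 libraries alone and leaving out each library were alternatives. Offsets for length and GC content, a mean of at least 10 CPM and the counts per list were added after seeing the data.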

Additional observations from a re-analysis of the deposited data

How the results depend on the processing

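The 2 libraries of week 1 limit its precision, and the share of low genes at 0 was highest at week 10, although week 4 had fewer counts. Higher and lower calls were 406 and 246 in the 5 libraries alone, 1736 and 542 on log2(TPM + 1), and 1708 and 450 on log2(TPM + 0.1), where the median of all genes shifted to 0.14; 1275 and 1289 of the 1746 calls were kept on those TPM scales, and the cause was not tested. Fading genes numbered 1150 on log2(TPM + 1), genes that moved on in their first direction 31 with DESeq2, and held genes 947 with a mean of at least 10 CPM, where fewer genes were tested. Leaving out 1 library of weeks 0, 1 or 10 gave 154 to 1124 higher, 168 to 995 lower, 134 to 785 fading, 934 to 1928 held, 0 to 20 building and 188 to 1491 late genes, against 917, 829, 728, 1582, 15 and 1003; each lowest value came without the first week 1 library. RLE size factors, no filter, DESeq2, the longest transcript and the GC offset kept both counts of calls within 1.5 times. No named gene reversed with a call.

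Deviations of same-numbered week 1 and week 10 libraries correlated at 0.09 and 0.04 across genes, and those of other numbers at -0.09 to 0.05. With 2 week 1 libraries, their deviations mirror each other, so these values cannot decide whether replicate numbers pair the libraries. With the number as a replicate block, 735 genes were higher and 619 lower, 1257 of the calls were kept, and 9 genes moved on in their first direction.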
